A study of Homo sapiens with 18 samples.

Results

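The genes described here are 10 human genes of glycolysis and the hypoxia response: SLC2A1, HK2, PFKFB3, PFKFB4, LDHA, PDK1, VEGFA, ADM, CA9 and NDRG1. They were taken by name, out of 19720 genes with a named probe on the arrays, and every probe annotated with a RefSeq transcript of one of them was used. This gave 14 probes, with a pair of probes each for HK2, PFKFB3, LDHA and VEGFA, and all 14 passed the filter on dim probes. Where a gene had a pair, its brighter probe stands for it, and the other is given where its direction or call differs.

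The 18 one-colour arrays measured RNA of cells positive for EpCAM, a surface protein of tumor-initiating liver cancer cells, which were sorted from the hepatocellular carcinoma (HCC) lines Huh1 and Huh7. Each line was left as a control, exposed to disulfiram (DSF) at 0.1 µM, or exposed to 5-fluorouracil (5-FU) at 1 µM, for 48 hours, with 3 arrays per group. DSF is a drug against alcohol dependence that inhibits aldehyde dehydrogenase, and 5-FU is a chemotherapeutic pyrimidine analog. The study asked how the RNA of such cells responds to DSF in comparison with 5-FU. Both lines came from a cell bank, dead cells were gated out with propidium iodide, the methods name CuCl2 together with DSF, and what the control cells received is not given in the sources used here. Copper and DSF therefore cannot be told apart. The triplicates are described as independent experiments, and 2 established lines are the only models.

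Within groups, arrays correlated at 0.989 to 0.997, and between 25341 and 30094 of the 42405 probes on an array were well above background. The arrays lay on 3 slides. All Huh1 arrays but 1 DSF array shared a slide, that array lay with the Huh7 controls, the Huh7 5-FU arrays and 1 Huh7 DSF array, and the other 2 Huh7 DSF arrays had a slide of their own. All 8 markers of hepatocytes and HCC were above background on every array, but they moved with the drug: after DSF none rose and 7 fell in Huh1 (0% and 87.5%, against 23.9% and 20.3% of all tested probes, median -0.54), and 2 rose and 5 fell in Huh7 (25% and 62.5%, against 27.3% and 19.4%, median -0.41). With arrays set to 7 spike-in control probes in place of the 75th percentile, none rose after DSF, and 3 fell in Huh1 and 5 in Huh7. After 5-FU 3 rose and 2 fell in Huh1 (37.5% and 25%, against 22.2% and 26%). In Huh7, 3 rose and 3 fell after 5-FU (37.5% each, against 27.3% and 29.7%). With spike-ins all 8 rose after 5-FU in each line, as did most tested probes. Of 9 markers of endothelial cells, fibroblasts, leukocytes and red blood cells, 4 to 8 were above background per array. Their summed linear level was 1.41 to 5.09 times an array's 75th percentile, against 629.8 to 1104 for the hepatocyte and HCC markers, and HBB was above background on no array. In Huh1 this sum was 2.72 to 4.91 in controls, 3.57 to 3.84 after DSF and 4.80 to 5.09 after 5-FU. In Huh7 it was 1.41 to 1.45 in controls, 1.75 to 1.95 after DSF and 2.91 to 4.36 after 5-FU, so that the Huh7 groups did not overlap. The part of both marker lists in the results was not tested. EPCAM itself, on which the cells were sorted, fell after DSF by 0.66 in Huh1 and by 0.50 in Huh7 on the log2 scale (adjusted p = 0.001918 and 0.01221).

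Glycolysis splits glucose into pyruvate in the cytosol, and cancer cells often run it fast even with oxygen at hand. When oxygen is low, the hypoxia-inducible factors HIF1A and EPAS1 escape the prolyl hydroxylases that mark them for destruction through VHL, pair with ARNT, and bind a short core in DNA near genes of glucose uptake, glycolysis, blood vessel growth and acid balance. All 10 genes are known targets of this pathway, although growth factors, MYC and nutrient stress also act on several of them. Liver is a tissue that both makes and burns glucose, and HCC is known for its dense vessels and its hypoxic regions.

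The core bound by HIF reads ACGTG or GCGTG. It was searched on both strands in the 250 bases before each transcript start in the RefSeq promoters of GRCh38.p14. CACGTG is its own reverse complement and was counted on both strands. The search covered 12 promoters of 8 of the 10 genes, and 10 of these promoters held a core. Promoters of VEGFA and NDRG1 were not searched, so nothing is said of their cores. Of all 35116 promoters of this length, 18.5% held ACGTG, 32.2% held GCGTG and 43.2% held either, so a match by itself is common. Those of LDHA, PDK1, CA9 and PFKFB4 are shown, since the results turn on these genes, with the cores on either strand in capitals. They lie upstream of the first exon at chr11:18394313-18394562 (LDHA, plus strand), chr2:172555840-172556089 (PDK1, plus strand), chr9:35673678-35673927 (CA9, plus strand) and chr3:48556804-48557053 (PFKFB4, minus strand).
LDHA: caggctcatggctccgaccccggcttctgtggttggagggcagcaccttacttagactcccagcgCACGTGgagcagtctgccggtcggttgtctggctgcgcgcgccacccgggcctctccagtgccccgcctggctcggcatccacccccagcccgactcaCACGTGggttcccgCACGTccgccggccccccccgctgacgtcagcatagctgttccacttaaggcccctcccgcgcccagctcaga
PDK1: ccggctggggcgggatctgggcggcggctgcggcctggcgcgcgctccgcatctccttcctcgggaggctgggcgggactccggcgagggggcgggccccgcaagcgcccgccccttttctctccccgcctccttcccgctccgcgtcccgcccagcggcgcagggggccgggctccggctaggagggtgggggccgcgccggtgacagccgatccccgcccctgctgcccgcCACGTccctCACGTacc
CA9: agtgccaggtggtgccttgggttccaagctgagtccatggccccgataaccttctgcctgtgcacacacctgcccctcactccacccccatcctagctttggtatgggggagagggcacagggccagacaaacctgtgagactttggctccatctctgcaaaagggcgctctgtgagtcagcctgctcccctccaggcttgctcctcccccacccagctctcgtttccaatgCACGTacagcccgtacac
PFKFB4: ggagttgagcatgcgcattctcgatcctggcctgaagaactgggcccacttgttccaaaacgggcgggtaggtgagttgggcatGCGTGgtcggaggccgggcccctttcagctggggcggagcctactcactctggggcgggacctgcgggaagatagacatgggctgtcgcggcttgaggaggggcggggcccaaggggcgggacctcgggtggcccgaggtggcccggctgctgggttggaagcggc
CACGT is ACGTG read on the opposite strand. LDHA held CACGTG at 2 places and a single CACGT, PDK1 held CACGT 17 and 8 bases before its start, and CA9 held CACGT 18 bases before its start. PFKFB4 held GCGTG 166 bases before its start. The promoter of SLC2A1 and a farther upstream promoter of PDK1 held neither core in this window.

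All levels below are log2 signals minus the array's log2 75th percentile, so that 0 is the 75th percentile of that array, and levels are compared within a probe, never between probes. Changes are differences of group means of these levels in limma, and a gene is said to rise or fall where the p-value adjusted over all 29894 tested probes was under 0.05. A lower level in a sorted culture cannot tell fewer cells that express a gene from less RNA per cell.

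The control cells of the lines differed in most of the genes, as they did in most tested probes. In Huh7, 6 genes were higher than in Huh1, against 34.5% of all tested probes, and 2 were lower, against 36.2%. The median of the 10 genes was 0.41, against -0.05 for all tested probes. HK2, the hexokinase that traps glucose as glucose-6-phosphate and is low in normal hepatocytes, read -0.23, -0.43 and -0.48 on the Huh1 control arrays and 2.88, 2.94 and 2.94 on the Huh7 control arrays. Every Huh7 array lay above every Huh1 array, with a difference of 3.30 ± 0.10 (SE; 9.85-fold; adjusted p = 8.001e-13), and the other HK2 probe was at least 2.78-fold higher in Huh7. PFKFB4, which makes and breaks down the activator of phosphofructokinase, was 6.23-fold higher in Huh7 (adjusted p = 9.875e-14), and VEGFA, the main growth factor for blood vessels, was 4.96-fold higher (adjusted p = 2.809e-11). SLC2A1, PDK1 and NDRG1 were higher by 0.53, 0.26 and 0.59.

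PFKFB3, the relative of PFKFB4 whose kinase activity drives glycolysis in growing cells, ran the other way. Its arrays read 2.92, 2.97 and 2.91 in Huh1 and 0.54, 0.50 and 0.47 in Huh7, a level 5.39-fold lower in Huh7 (adjusted p = 3.066e-10). The other PFKFB3 probe was 2.03-fold lower (adjusted p = 0.0001282). CA9, a carbonic anhydrase on the cell surface that disposes of acid under hypoxia, read -1.79, -2.93 and -3.32 on the Huh1 control arrays and was not well above background on any Huh7 control array. The level in Huh1 was at least 14.2-fold higher, where the Huh7 side is bounded, array by array, by the dimmest signal that still passed the background test, or by the CA9 probe itself if that was brighter (adjusted p = 2.502e-07). LDHA, which turns pyruvate into lactate, and ADM, a vessel-widening peptide, did not pass the test (0.02 ± 0.06 and 0.30 ± 0.21, SE), although the other LDHA probe was lower in Huh7 by 0.53 (adjusted p = 2.283e-06). The controls of the 2 lines lay on different slides. With slide as a block, which rests on the DSF arrays that crossed slides, the differences of PDK1 and NDRG1 were 0.23 and 0.54 and no longer passed (adjusted p = 0.1565 and 0.1149), while the other 6 calls held.

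**Figure D1:**
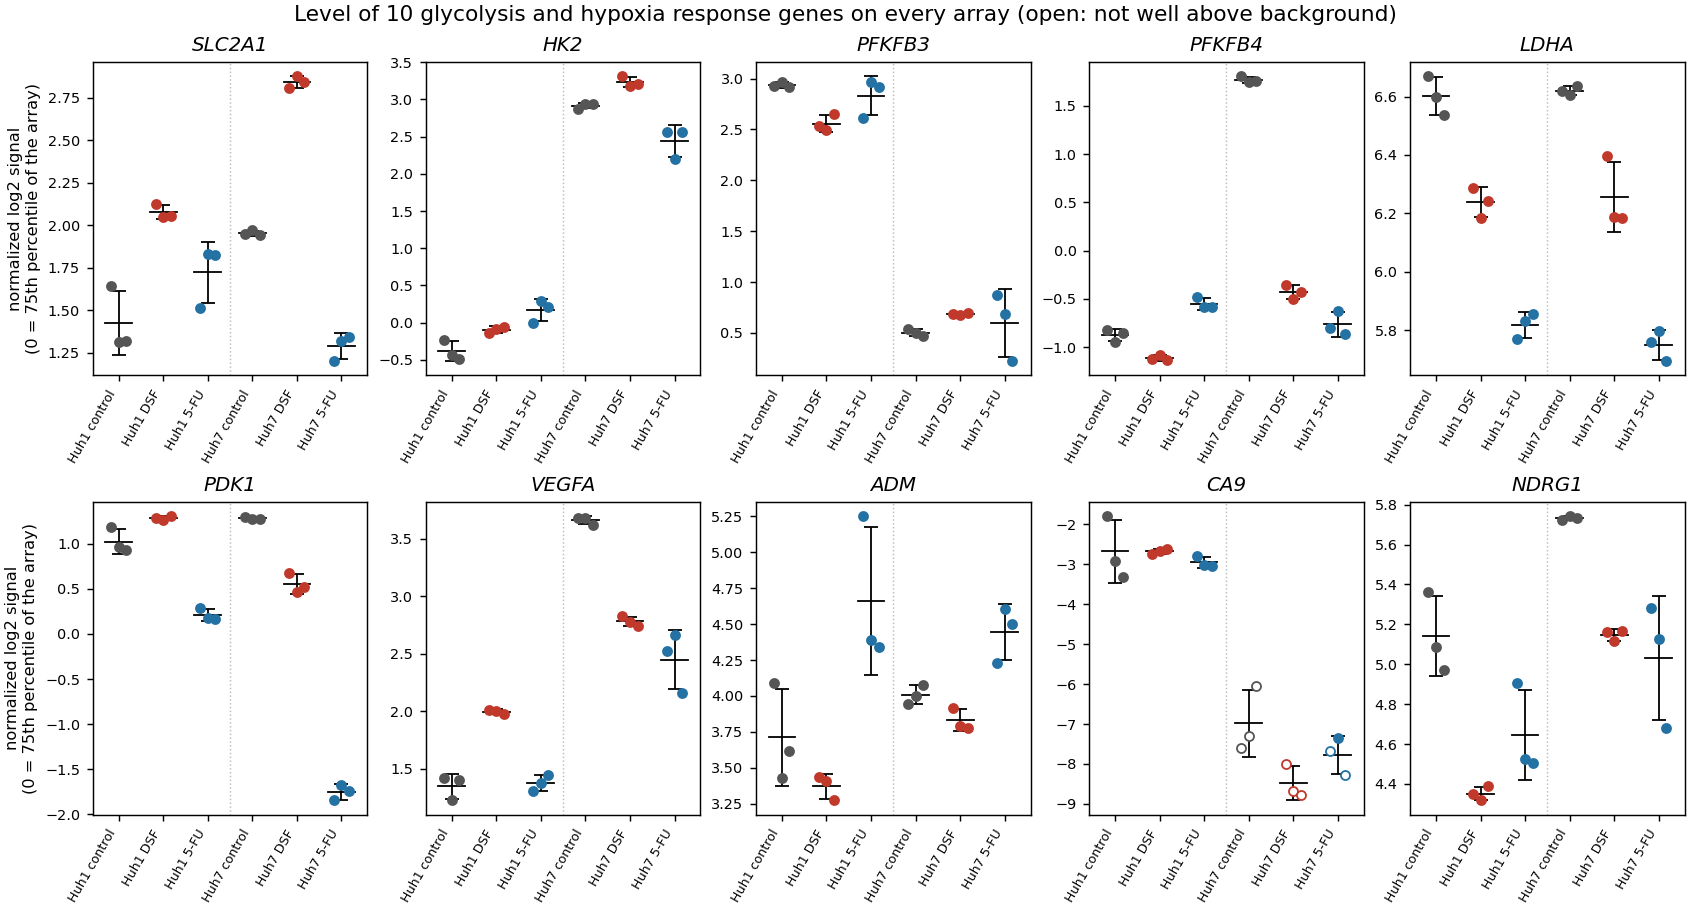
Normalized log2 level (log2 signal minus the array's log2 75th percentile) of the 10 genes on each of the 18 arrays, by line and treatment, with points for arrays and bars for group means. HK2, PFKFB4 and VEGFA stood higher in Huh7 controls, PFKFB3 and CA9 higher in Huh1, and PDK1 in Huh7 after 5-FU lay far below all other groups.

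DSF moved the genes in both directions. In Huh1, 4 genes rose, against 23.9% of all tested probes, and 4 fell, against 20.3%. In Huh7, 2 rose, against 27.3%, and 6 fell, against 19.4%, a count that includes CA9 below background. The median change of the 10 genes was -0.12 in Huh1 and -0.47 in Huh7, against 0.00 and 0.08 for all tested probes.

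SLC2A1, the glucose transporter GLUT1 through which glucose enters the cell, rose in both lines. It read 1.64, 1.31 and 1.32 in Huh1 controls and 2.12, 2.05 and 2.06 after DSF. In Huh7 it went from 1.95, 1.97 and 1.94 to 2.81, 2.88 and 2.84. The groups did not overlap in either line, and the rise was 1.57-fold in Huh1 and 1.85-fold in Huh7 (adjusted p = 6.859e-05 and 4.72e-06). HK2 also rose, by 0.29 ± 0.10 in Huh1 and by 0.32 ± 0.10 in Huh7 (SE; adjusted p = 0.03489 and 0.02111). The other, dimmer HK2 probe fell by 0.50 in Huh7 (adjusted p = 0.007882), opposite to the brighter one, so the direction of HK2 rests on the probe.

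Of the regulators of glycolytic rate, PFKFB4 fell most in Huh7. It read 1.80, 1.74 and 1.75 on the Huh7 control arrays and -0.35, -0.50 and -0.43 after DSF. The groups lay far apart, and the fall was 2.19 ± 0.07 on the log2 scale (SE; 4.57-fold; adjusted p = 2.537e-11). In Huh1, where PFKFB4 started lower at -0.87 ± 0.06 (SD, n = 3), it fell by 0.24 (adjusted p = 0.01053). PFKFB3 fell in Huh1, from 2.93 ± 0.03 to 2.56 ± 0.08 (SD, n = 3), and in Huh7 its change of 0.18 ± 0.13 (SE) did not pass. The other PFKFB3 probe, above background on all arrays, lay on the opposite side of 0 in each line and did not pass (0.23 in Huh1, with all DSF arrays above the controls, and -0.22 in Huh7; SE 0.18), so the direction of PFKFB3 rests on the probe.

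At the fate of pyruvate, LDHA fell by 0.36 ± 0.06 (SE) in each line, from 6.67, 6.60 and 6.54 to 6.29, 6.18 and 6.24 in Huh1 and from 6.62, 6.60 and 6.64 to 6.40, 6.19 and 6.19 in Huh7. Control and DSF arrays did not overlap in either line (adjusted p = 0.0003421 in Huh1 and 0.0003782 in Huh7), and the other LDHA probe fell as well. PDK1, a kinase that switches off pyruvate dehydrogenase, moved in opposite directions. It rose from 1.19, 0.96 and 0.93 to 1.29, 1.27 and 1.31 in Huh1 (adjusted p = 0.01166). In Huh7 it fell from 1.30, 1.28 and 1.27 to 0.68, 0.46 and 0.53, a change of -0.73 ± 0.08 (SE; adjusted p = 4.091e-06).

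Of the secreted factors, VEGFA split by line as well. Its level went from 1.42, 1.23 and 1.40 to 2.02, 2.00 and 1.98 in Huh1, a 1.57-fold rise (adjusted p = 0.0001085). In Huh7 it went from 3.68, 3.68 and 3.62 to 2.82, 2.78 and 2.74, a 1.84-fold fall (adjusted p = 7.786e-06). The other VEGFA probe moved the same way in each line, by 0.60 in Huh1 and -0.40 in Huh7. ADM did not pass in either line (-0.34 and -0.18 ± 0.21, SE). NDRG1, a stress-responsive gene that HIF and iron loss induce, fell by 0.79 in Huh1 and by 0.58 in Huh7 on the log2 scale (adjusted p = 0.0003945 and 0.003815). CA9 in Huh1 was 0.00 ± 0.41 (SE) away from its control, with control arrays spread over more than the DSF arrays.

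Because 2 of the 3 Huh7 DSF arrays lay on a slide of their own, the comparison was repeated with only the DSF arrays that shared a slide with their controls, which leaves 1 DSF array in Huh7 that is assumed to vary like the others. There SLC2A1 kept its rise (0.85), and PFKFB4 (-2.12), PDK1 (-0.61) and VEGFA (-0.84) kept their fall. HK2 (0.39), LDHA (-0.22), CA9 (-1.01, below background) and NDRG1 (-0.57) kept their direction and no longer passed (adjusted p = 0.09707, 0.06455, 0.2805 and 0.08668). With arrays set to 7 spike-in control probes in place of their 75th percentile, DSF changed the median tested probe by 0.14 (Huh1) and -0.09 (Huh7), and the changes of HK2 in both lines and of PFKFB3, PFKFB4 and LDHA in Huh1 kept their direction and no longer passed.

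**Figure D2:**
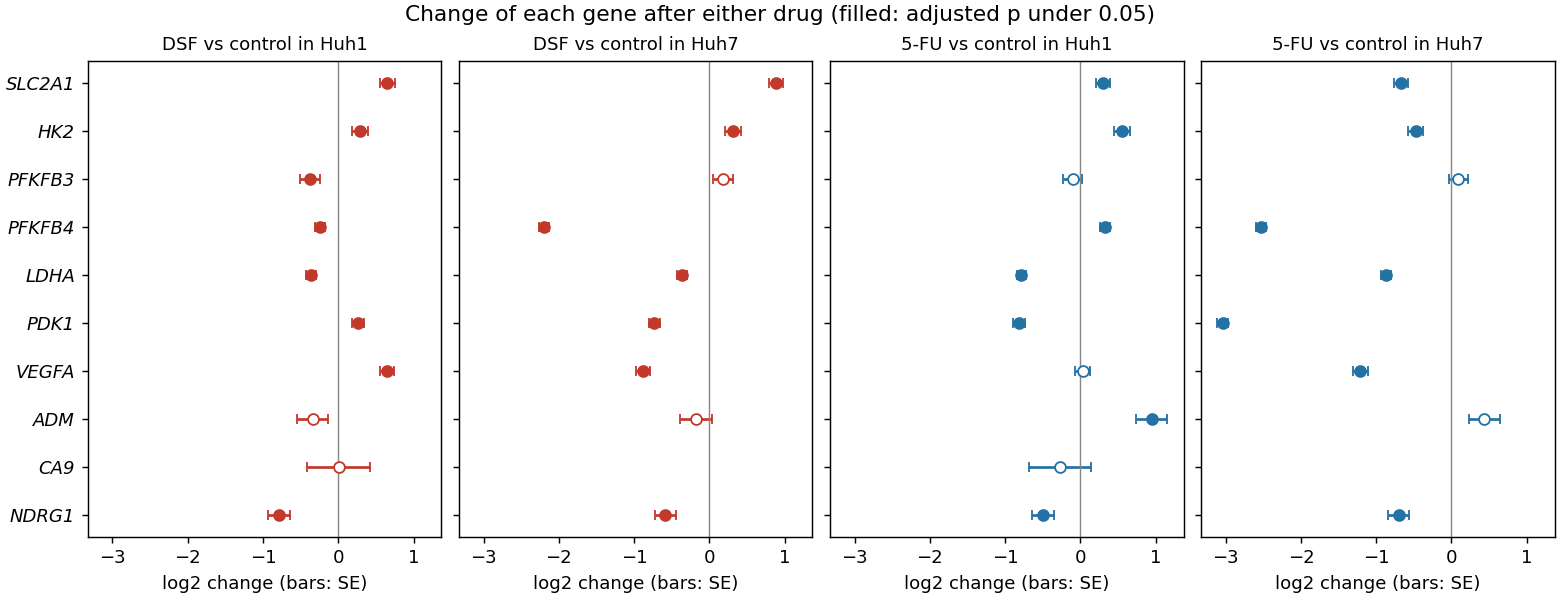
Log2 change of each gene against its own control (mean difference with its standard error, 3 arrays per group), after DSF and after 5-FU, in Huh1 and Huh7. CA9 in Huh7 is left out because it was not above background there. After DSF, SLC2A1 lies above 0 in both lines, and PFKFB4, PDK1 and VEGFA lie below 0 in Huh7, where the 5-FU changes of PFKFB4 and PDK1 are the largest plotted. With arrays set to their spike-in probes, LDHA, PDK1 in Huh1, NDRG1, and HK2 and SLC2A1 in Huh7 turn from below to above 0 after 5-FU, as do the changes of PFKFB3 and CA9 in Huh1 that did not pass.

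The choice of scale turned several directions after 5-FU. The 5-FU arrays were brighter, with a log2 75th percentile of 10.63 to 10.84 against 10.10 to 10.29 on all others. When arrays were set to these spike-in probes, the median change of all tested probes moved from -0.03 to 0.79 in Huh1 and from -0.05 to 0.94 in Huh7. Of all probes called after 5-FU, the share that was higher was then 98.4% in Huh1 and 95.7% in Huh7, against 46.1% and 47.9%. Relative to the median probe, a gene's change is the same on both scales, and changes are given on the 75th percentile scale with the other scale named where it turns the direction. How much of the shift belongs to the RNA, to the labelling or to the spike-in probes was not tested.

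In Huh1, 4 genes rose after 5-FU, against 22.2% of all tested probes, and 3 fell, against 26%. ADM rose the most. It read 4.09, 3.43 and 3.62 in controls and 5.25, 4.39 and 4.34 after 5-FU, so that the lowest treated array lay above the highest control array, and the rise was 1.93-fold (adjusted p = 0.001787). HK2 rose by 0.55 and PFKFB4 by 0.32 (adjusted p = 0.0004981 and 0.001224). The other HK2 probe was not above background in Huh1. SLC2A1 rose by 0.30 (adjusted p = 0.01823), with arrays that overlapped, from 1.31 to 1.64 in controls and from 1.51 to 1.83 after 5-FU. LDHA fell 1.72-fold (adjusted p = 4.139e-07) and PDK1 1.76-fold (adjusted p = 1.364e-06), while on the spike-in scale both were close to 0 with changes of 0.04 and 0.01. NDRG1 fell by 0.50 (adjusted p = 0.009905), with 0.33 on the spike-in scale. VEGFA did not pass on its brighter probe (0.03 ± 0.10, SE), whereas its other probe rose by 0.58 (adjusted p = 0.0007209). PFKFB3 (-0.10 ± 0.13, SE) and CA9 (-0.27 ± 0.41, SE) did not pass, and on the spike-in scale PFKFB3 rose by 0.73 (adjusted p = 0.002918) and CA9 was above 0.

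In Huh7, no gene rose and 7 fell after 5-FU, against 27.3% higher and 29.7% lower among all tested probes. At an unadjusted p under 0.05 the count that rose was 0. The median change of the 10 genes was -0.74 in Huh7 and -0.04 in Huh1. PDK1 read 1.30, 1.28 and 1.27 on the control arrays and -1.85, -1.67 and -1.75 after 5-FU. This fall of 3.04 ± 0.08 on the log2 scale (SE; 8.23-fold; adjusted p = 3.859e-12) was the largest change of the 10 genes in any of the drug comparisons, and remained a fall on the spike-in scale (-2.06; adjusted p = 6.103e-09). PFKFB4 fell from 1.80, 1.74 and 1.75 to -0.80, -0.62 and -0.87, which is 5.77-fold (adjusted p = 7.307e-12) and was a fall on the spike-in scale too (-1.55; adjusted p = 5.741e-08). Both genes had no array in common between the control and the treated range.

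VEGFA fell 2.32-fold in Huh7, from 3.68, 3.68 and 3.62 to 2.52, 2.66 and 2.16 (adjusted p = 1.362e-07), and its change on the spike-in scale, -0.23, did not pass. Its other probe fell by 0.30 with overlapping arrays (adjusted p = 0.03681). LDHA fell 1.83-fold (adjusted p = 4.902e-08), SLC2A1 1.59-fold (adjusted p = 3.095e-05), HK2 1.39-fold (adjusted p = 0.001125) and NDRG1 1.63-fold (adjusted p = 0.0006605), and all 4 turned above 0 on the spike-in scale, to 0.12, 0.32, 0.51 and 0.28. There SLC2A1 and HK2 passed as rises (adjusted p = 0.04147 and 0.0143), while LDHA and NDRG1 did not pass. The other HK2 probe was at least 2.77-fold lower, with no treated array well above background. ADM was 0.44 ± 0.21 (SE) above its control with no overlap of arrays and did not pass (adjusted p = 0.08846), while on the spike-in scale it rose by 1.42 (adjusted p = 1.756e-05). PFKFB3 was 0.09 ± 0.13 (SE) above its control, not past the test, and rose by 1.08 on the spike-in scale (adjusted p = 9.245e-05). Its other probe was -0.29 ± 0.18 (SE), not past the test. CA9 was well above background on 1 of the 9 Huh7 arrays, a 5-FU array.

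**Figure D3:**
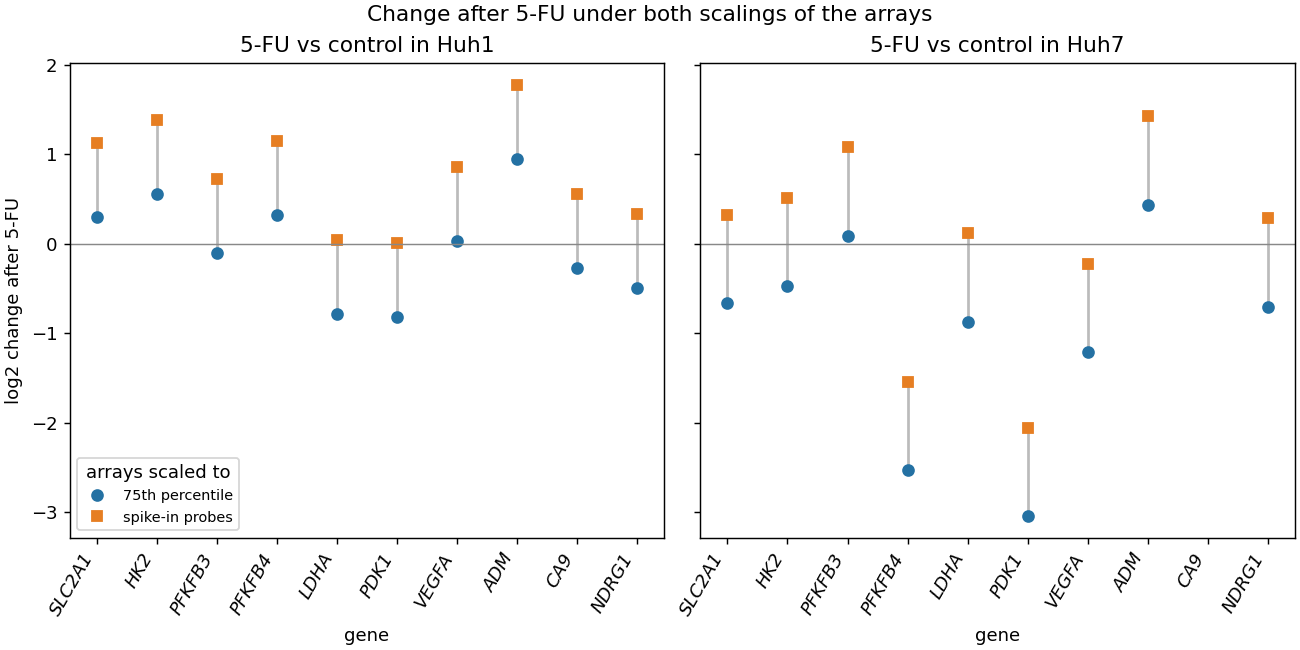
Log2 change after 5-FU of each gene on 2 scales, with arrays set to their 75th percentile (circles) or to spike-in probes (squares), 3 arrays per group. CA9 in Huh7 is left out because it was not above background. The squares lie above the circles throughout, and PFKFB4, PDK1 and VEGFA in Huh7 remain below 0 on both scales, where LDHA, NDRG1, HK2 and SLC2A1 in Huh7 cross it.

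The effect of a drug can be set against its effect in the other line. For DSF, 4 genes differed between lines in the size of their change, against 40.3% of all tested probes. PFKFB4 (-1.95), VEGFA (-1.53) and PDK1 (-0.99) moved lower in Huh7 than in Huh1, and PFKFB3 (0.56) moved higher on its brighter probe, while its other probe was at -0.45 ± 0.25 (SE) and did not pass (adjusted p = 0.1717). The DSF changes of LDHA and HK2 differed by 0.00 and 0.03, which did not pass. For 5-FU, 5 genes differed, against 36.6%, and all moved lower in Huh7: PFKFB4 (-2.85), PDK1 (-2.22), VEGFA (-1.24), HK2 (-1.03) and SLC2A1 (-0.97). On the spike-in scale, every one of these 5-FU differences kept its direction and passed, and the PFKFB3 difference after DSF no longer passed (0.25; adjusted p = 0.5303).

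Both drugs were also set against each other within each line. The 2 drug comparisons of a line share its 3 control arrays, so their changes are given side by side and not correlated, while the direct contrast uses the treated arrays only. In Huh1, 7 genes differed between DSF and 5-FU, against 49.2% of all tested probes. SLC2A1, LDHA, PDK1 and VEGFA were higher after DSF (by 0.35, 0.42, 1.08 and 0.62), although the other VEGFA probe was at 0.01 ± 0.11 (SE; adjusted p = 0.9291), and on the spike-in scale SLC2A1, LDHA and VEGFA turned lower (-0.34, -0.28 and -0.08). Of these, only SLC2A1 passed as lower on that scale (adjusted p = 0.0363). HK2, PFKFB4 and ADM were lower after DSF (by 0.27, 0.56 and 1.29 in size). PFKFB3 did not pass on its brighter probe and was higher after DSF by 0.50 on the other (adjusted p = 0.03142). In Huh7, 7 genes differed, against 60.5%. PDK1 and SLC2A1 were higher after DSF by 2.31 and 1.56 (adjusted p = 3.789e-11 and 8.766e-09) and remained higher on the spike-in scale (1.15 and 0.39). HK2, LDHA, PFKFB4 and VEGFA were higher by 0.79, 0.51, 0.34 and 0.33 and turned lower on the spike-in scale, and the other VEGFA probe was at -0.10 ± 0.11 (SE; adjusted p = 0.4614). On the spike-in scale LDHA, PFKFB4 and VEGFA passed as lower, and HK2 did not pass (adjusted p = 0.06172). The spike-in scale moved the median tested probe from 0.08 to -0.61 between the drugs in Huh1 and from 0.12 to -1.04 in Huh7. ADM was lower after DSF in both lines, 2.45-fold in Huh1 and 1.53-fold in Huh7 (adjusted p = 0.0001527 and 0.01998).

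Beyond the 10 genes, 26 other known targets of HIF were read as a list. They were chosen with earlier results of these arrays known. CA12, EGLN3, SLC2A3, ALDOC and PGK1 are also counted in other lists below, so the lists are not separate. After DSF in Huh7, 21 of the 26 fell, against 19.4% of all tested probes, and 1 rose, against 27.3%, with a median change of -0.74. In Huh1, 10 rose and 3 fell (38.5% and 11.5%, against 23.9% and 20.3% of all tested probes), with a median of 0.20. After 5-FU in Huh7, 2 rose and 20 fell (7.69% and 76.9%, against 27.3% and 29.7%; median -0.93), and in Huh1, 6 rose and 15 fell (23.1% and 57.7%, against 22.2% and 26%; median -0.27), with 8 that fell under quantile scaling. In untreated cells 16 of the 26 were higher in Huh7 and 7 lower (61.5% and 26.9%, against 34.5% and 36.2%; median 1.38). The medians of all tested probes were 0.00 and 0.08 after DSF in Huh1 and Huh7, -0.03 and -0.05 after 5-FU, and -0.05 at baseline, and those of the lists below are to be read against them. The Huh7 control was the highest of the 3 Huh7 groups for 21 of the genes, and the Huh1 control the highest of its line for 9. The lone riser after DSF in Huh7 was KDM3A, a histone demethylase (0.40).

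The list depends on scale after 5-FU: on the spike-in scale 20 rose and none fell in Huh1, and 11 rose and 8 fell in Huh7. The DSF count in Huh7 did not, with 21 lower and none higher on that scale, and with only the DSF array on the slide of the controls 17 of 26 were lower and none higher. Of the 23 targets above background in Huh1, 10 rose and 3 fell after DSF, and 6 rose and 12 fell after 5-FU. The fallers after DSF in Huh1 were 8 when arrays were set to their median in place of the 75th percentile, and 5 without the Huh1 control replicate 1.

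The members of the list that moved most were EPO, CXCR4 and ANKRD37. EPO, the hormone that raises red cell production and is made in kidney and fetal liver, read -1.65, -1.67 and -1.64 in Huh7 controls, -5.28, -5.73 and -5.53 after DSF and -5.94, -5.95 and -5.95 after 5-FU. It was not above background in Huh1, where Huh7 controls stood at least 29.1-fold higher. CXCR4, a chemokine receptor, read -0.21, -0.30 and -0.30 in Huh7 controls and -4.27, -4.52 and -4.48 after DSF, a change of -4.15, and changed by -1.29 after 5-FU. ANKRD37, an ankyrin repeat protein that HIF induces, rose by 1.29 in Huh1 and fell by 2.41 in Huh7 after DSF. Genes that rose in Huh1 and fell in Huh7 after DSF, chosen after their values were seen, included ANGPTL4, a secreted inhibitor of lipoprotein lipase (2.27 and -1.88), DDIT4, a stress-induced brake on mTOR (1.08 and -1.70), and STC2, a secreted glycoprotein (2.00 and -0.75).

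**Figure D4:**
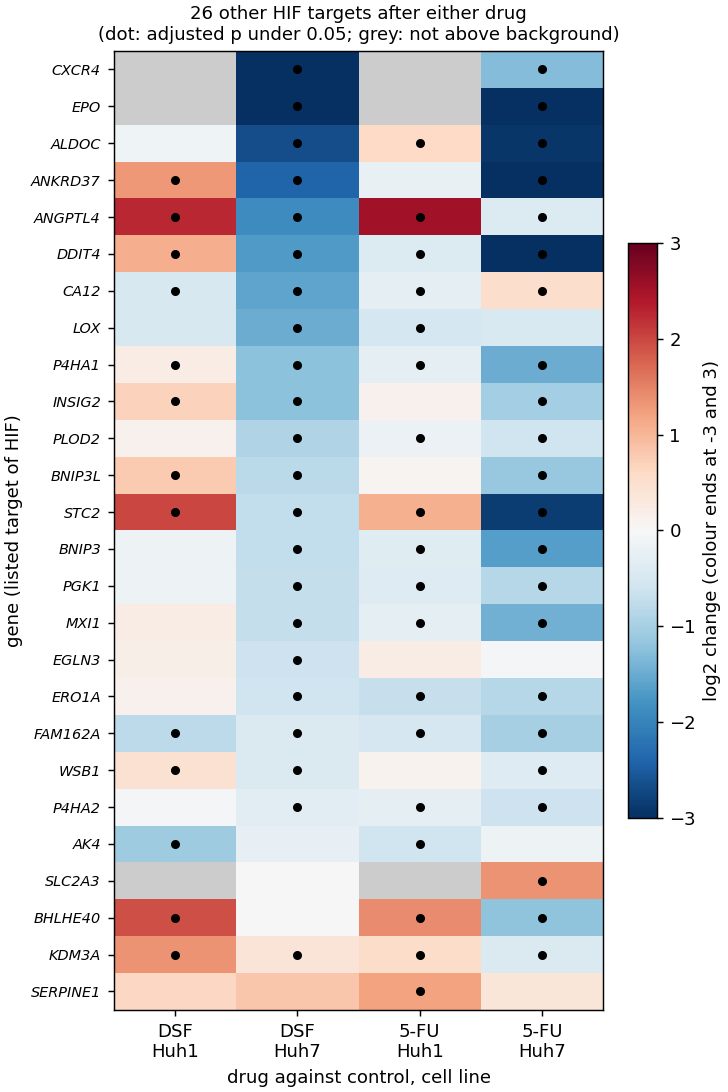
Log2 change after DSF and 5-FU in each line for 26 further HIF targets, with color for direction and size and grey cells for genes not above background in Huh1 (CXCR4, EPO and SLC2A3). The Huh7 columns hold mostly falls and the Huh1 column for DSF more rises than falls. On the spike-in scale the 5-FU columns turn, with 20 rises in Huh1 and 11 in Huh7.

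Of 11 genes for HIF and its oxygen sensors, 1 rose and 1 fell after DSF in Huh1 (9.09% and 9.09%, against 23.9% and 20.3% of all tested probes), and 1 rose and 2 fell in Huh7 (9.09% and 18.2%, against 27.3% and 19.4%). After 5-FU 5 rose and none fell in Huh1 (45.5% and 0%, against 22.2% and 26%), and 6 rose and 1 fell in Huh7 (54.5% and 9.09%, against 27.3% and 29.7%). Over the list, the median change was 0.14 in Huh1 and 0.04 in Huh7 with DSF, and 0.24 and 0.26 with 5-FU. HIF1A RNA rose by 0.83 after DSF in Huh1, was 0.04 in Huh7, not past the test, and was higher by 1.92 in Huh7 controls than in Huh1 controls. RNA says nothing of HIF1A protein, which is set mainly by its breakdown. On the spike-in scale 11 rose after 5-FU in Huh1 and 10 in Huh7. EGLN2, a prolyl hydroxylase, rose after 5-FU by 0.60 in Huh1 and 0.78 in Huh7, and CITED2, a competitor of HIF for its coactivator, by 1.30 in Huh1.

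Among glycolytic enzymes, 20 of the 21 listed, which include HK2 and LDHA, were on the array and tested. After DSF 4 rose and 6 fell in Huh1 (20% and 30%, against 23.9% and 20.3% of all tested probes), and 5 rose and 7 fell in Huh7 (25% and 35%, against 27.3% and 19.4%). After 5-FU 3 rose and 10 fell in Huh1 (15% and 50%, against 22.2% and 26%), and 4 rose and 11 fell in Huh7 (20% and 55%, against 27.3% and 29.7%). The list's median lay at -0.17 in Huh1 and -0.09 in Huh7 with DSF, and -0.33 and -0.35 with 5-FU. The 5-FU directions turned on the spike-in scale, where 14 rose and none fell after 5-FU in Huh1 and 13 rose and 2 fell in Huh7, and 4 fell in Huh1 with quantile scaling. With median scaling 2 rose and 10 fell after DSF in Huh1. LDHB, the lactate dehydrogenase subunit that favors the return of lactate to pyruvate, rose in Huh7 from -3.91 ± 0.19 to 1.38 ± 0.14 after DSF (SD, n = 3; change 5.29; adjusted p = 1.387e-09), and did not pass after 5-FU. In Huh1 it was already 7.32 and did not pass after either drug. HKDC1, a hexokinase relative, was not above background in Huh7 controls and was at least 11.9-fold higher there after DSF and at least 7.18-fold higher after 5-FU. Its level in treated Huh7 cells, -2.73 after DSF and -3.45 after 5-FU, was still far below the 4.13 of Huh1 controls. The source of these Huh7 signals of LDHB and HKDC1, both far brighter in Huh1, was not tested. ALDOC, an aldolase, fell in Huh7 by 2.67 after DSF and by 2.92 after 5-FU.

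Of 11 tested transporters of glucose and lactate, SLC2A1 included, 2 rose and 4 fell after DSF in Huh1 (18.2% and 36.4%, against 23.9% and 20.3% of all tested probes), and 4 rose and 2 fell in Huh7 (36.4% and 18.2%, against 27.3% and 19.4%). After 5-FU 1 rose and 4 fell in Huh1 (9.09% and 36.4%, against 22.2% and 26%), and 5 rose and 3 fell in Huh7 (45.5% and 27.3%, against 27.3% and 29.7%), while on the spike-in scale 8 rose in each line and 1 fell in Huh1 and 2 in Huh7. The transporters' median change was -0.28 in Huh1 and 0.03 in Huh7 with DSF, and -0.12 and 0.02 with 5-FU. SLC16A3, the lactate exporter MCT4, fell in Huh7 by 2.11 after DSF and by 1.97 after 5-FU, and its Huh7 control level was 6.15 above that of Huh1. SLC2A4, the insulin-responsive transporter, fell after DSF in both lines, at least 3.66-fold in Huh1 and by 1.95 in Huh7. After 5-FU it also fell in Huh1, at least 6.81-fold. SLC2A2, the main glucose transporter of hepatocytes, fell by 1.08 after DSF in Huh1, and in Huh7 it was at least 8.64-fold higher after 5-FU than in controls that were not above background. Its level was then -3.68 in Huh7, against -0.16 in Huh1 controls.

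Of 13 tested genes that set glycolytic flux, PFKFB3, PFKFB4 and PDK1 included, 4 rose and 5 fell after DSF in Huh1 (30.8% and 38.5%, against 23.9% and 20.3% of all tested probes), and 2 rose and 6 fell in Huh7 (15.4% and 46.2%, against 27.3% and 19.4%). Over the list, the median change was 0.16 in Huh1 and -0.18 in Huh7 with DSF, and 0.06 and -0.50 with 5-FU. After 5-FU 4 rose and 5 fell in Huh1 (30.8% and 38.5%, against 22.2% and 26%), and 3 rose and 8 fell in Huh7 (23.1% and 61.5%, against 27.3% and 29.7%), which turned on the spike-in scale to 10 that rose and none that fell in Huh1 and 8 that rose and 2 that fell in Huh7. PDP1, the phosphatase that undoes the action of PDK1 and its relatives, rose after DSF by 1.71 in Huh1 and 0.95 in Huh7. PDK4 rose after DSF in both lines, by 0.77 in Huh7, and PDK2 fell (-0.92 and -1.30). After DSF in Huh7 the kinases named here, PDK1, PDK2 and PDK4, thus moved in different directions, and PDK3, also on the list, is not described.

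Of 10 tested ligands and receptors of VEGF and adrenomedullin, VEGFA and ADM included, 6 rose and 2 fell after DSF in Huh1 (60% and 20%, against 23.9% and 20.3% of all tested probes), and 2 rose and 2 fell in Huh7 (20% and 20%, against 27.3% and 19.4%). After 5-FU 6 rose and 1 fell in Huh1 (60% and 10%, against 22.2% and 26%), and 5 rose and 3 fell in Huh7 (50% and 30%, against 27.3% and 29.7%), and on the spike-in scale 9 and 6 rose and none fell. The list's median lay at 0.64 in Huh1 and -0.16 in Huh7 with DSF, and 0.50 and 0.88 with 5-FU. NRP1, a coreceptor for VEGFA, rose after both drugs in both lines, most after 5-FU in Huh7 (2.23). NRP2 rose by 2.35 after DSF and 2.48 after 5-FU in Huh1, and in Huh7 it was at least 6.07-fold higher after DSF and at least 5.63-fold higher after 5-FU. VEGFD rose by 2.70 after 5-FU in Huh7 and was at least 3.15-fold higher after 5-FU in Huh1.

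The genes most like each of the 10 were found by Pearson's r over the 6 group means, among 15851 other tested genes, as a description over groups that differ first by cell line. PFKFB3 was most like DCDC1, CPS1 and NUDT5 (r of 0.999 or more), HK2 like DRC7 (0.998), CA9 like HLA-C (0.998), and PDK1 like TMF1 (0.995). PFKFB4 was most like INMT (0.988), VEGFA like LMX1B (0.994), SLC2A1 like NCK1 (0.993), LDHA like SLC30A7 (0.992), NDRG1 like ATL2 (0.994) and ADM like SCARB2 (0.985). None of these is among the 10 genes or the HIF targets listed.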

How the data were processed

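RNA of sorted EpCAM+ cells of both lines was hybridised as Cy3-labelled cRNA to Agilent one-colour arrays. The deposited scanner files hold each spot's processed signal, an intensity after the background correction of Feature Extraction 10.7.1.1, per the file headers. The authors' deposited series table holds, from GeneSpring, each signal as a linear ratio to a scale of its own array, and for 100% of tested probes its log2 values matched the scanner values scaled as here, within 0.05. No other column of per-sample values was set aside: 0 columns could not be mapped to a sample.

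Flagged outlier spots and control spots were left out (78 probes had no spot left), spots of a probe were averaged on the log2 scale, and the 75th percentile of the log2 values of an array was taken off them. A probe was tested if some group had it well above background on each of its 3 arrays (29894 probes, 15852 genes). limma 3.58.1 in R 4.3.3 (data.table package, version 1.17.8) was fitted on all 18 arrays with 6 groups and no covariate, and p-values were two-sided, adjusted by Benjamini-Hochberg and called under 0.05. The p-values set each difference of means against the spread between arrays of the same line and treatment, whose number limits the precision. An exact permutation test of 3 against 3 arrays cannot give a p under 0.1 and was not used. The fit was tested on simulated data. Python 3.11.15, pandas 2.3.3, numpy 2.4.6 and matplotlib 3.10.9 prepared tables and plots.

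Groups came from the sample titles. The 10 genes and all gene lists were chosen with earlier results of these data known. Named from each list, with the 10 genes left out, are the 3 genes with the largest absolute change among those called in any drug comparison. Changes between groups that were both not above background were not used for this, and other names are marked. A fold against a group that was not well above background on every array is a lower bound. Alternatives were other background corrections (normexp with an offset of 50, on median signals), scalings, filters, blocks, probe rules and samples. Same-numbered replicates did not deviate together (18 correlations from -0.09 to 0.02), so the numbers were not used as pairs. Promoters came from RefSeq on GRCh38.p14.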

Additional observations from a re-analysis of the deposited data

Results flagged for a closer look

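The changes below differed between lines by the contrast of the 2 drug effects itself, fitted in limma on all 18 arrays, as the change in Huh7 minus the change in Huh1 on the log2 scale. For DSF these were PFKFB4 (-1.95, adjusted p = 8.848e-09), VEGFA (-1.53, adjusted p = 2.208e-06), PDK1 (-0.99, adjusted p = 9.633e-06) and PFKFB3 (0.56, adjusted p = 0.02549), whose other probe was at -0.45 (adjusted p = 0.1717). For 5-FU these were PFKFB4 (-2.85, adjusted p = 3.458e-10), PDK1 (-2.22, adjusted p = 1.138e-08), VEGFA (-1.24, adjusted p = 1.398e-05), HK2 (-1.03, adjusted p = 9.03e-05) and SLC2A1 (-0.97, adjusted p = 7.949e-05). Cell line goes with slide for most arrays. With slide as a block the PFKFB3 difference after DSF was 0.61 and no longer passed (adjusted p = 0.08706). Groups of 3 arrays were too small for a check of single arrays that stand apart.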

How the results depend on the processing

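In all, 1696 of the gene values under alternatives kept their direction and side of the threshold, 84 kept their direction and lost the call, 27 gained one and 64 turned direction. Counts of the 10 genes called that moved by over 1.5 times were as follows, and the causes were not tested. After DSF in Huh1, 2 were higher with median scaling (from 4), and 1 was lower on spike-ins (from 4). After DSF in Huh7, 1 was higher with quantile scaling, spike-ins, slide as a fixed block, the mean of a gene's probes and the DSF arrays on the slide of their controls (from 2), and 3 were lower on the last (from 6), an alternative chosen after seeing the data. After 5-FU in Huh1, 2 were higher with only the compared groups fitted (from 4) and 0 were lower on spike-ins (from 3), where all 10 changes in limma were above 0 and so none was lower at an unadjusted p under 0.05. After 5-FU in Huh7, 1 was higher with normexp, with only the compared groups fitted and with the replicate block (from 0), and 4 were higher and 2 lower on spike-ins (from 0 and 7). At baseline, 1 was lower with a filter of well above background on all arrays (from 2), which removes CA9. Leaving out single arrays gave 2 to 4 higher after DSF in Huh1 (2 without Huh1 control replicate 3), 1 to 2 after DSF in Huh7 (1 without Huh7 control replicate 1 or Huh7 DSF replicate 1), and 0 to 1 after 5-FU in Huh7 (1 without Huh7 5-FU replicate 3). The replicate block, in which same-numbered arrays form a pair, also took the calls of HK2 after DSF in Huh1 (0.29, adjusted p = 0.06229) and between the drugs in Huh1 (-0.27, adjusted p = 0.07485), added ADM after 5-FU in Huh7 (0.44, adjusted p = 0.03575) and changed no other call.

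Directions turned most on spike-ins. After 5-FU in Huh1 these were PFKFB3 (0.73), LDHA (0.045), PDK1 (0.013), CA9 (0.56) and NDRG1 (0.33), and in Huh7 HK2 (0.51), SLC2A1 (0.32), LDHA (0.12), CA9 (0.20) and NDRG1 (0.28). DSF against 5-FU turned in Huh1 for SLC2A1 (-0.34), LDHA (-0.28), VEGFA (-0.078) and CA9 (-0.42), and in Huh7 for HK2 (-0.37), PFKFB3 (-1.07), PFKFB4 (-0.82), LDHA (-0.66), VEGFA (-0.83) and NDRG1 (-1.04). The DSF line difference turned for HK2 (-0.28), SLC2A1 (-0.074), LDHA (-0.31), NDRG1 (-0.11) and ADM (-0.15), and the 5-FU one for LDHA (0.071). The share of higher calls among all probes on spike-ins was 74.7% for DSF in Huh1 and 34.3% in Huh7 (54.1% and 58.5% on the 75th percentile), 6.83% and 3.3% for DSF against 5-FU (58.2% and 58.8%), and 16.9% and 66.5% for the line differences of DSF and 5-FU (52.3% and 51.3%). With normexp it was 29.4% and 35.1% for 5-FU in Huh1 and Huh7 and 70.8% for DSF against 5-FU in Huh1. With median scaling, which moved the median of all probes after DSF in Huh1 to -0.17, it was 33% for DSF in Huh1, 40.7% for DSF against 5-FU in Huh1 and 68.5% for the DSF line difference, and with no filter 35.7% for 5-FU in Huh1.

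Other turns were of results that did not pass before or after, except with the mean of a gene's probes. Normexp turned CA9 after DSF in Huh1 (-0.057) and between the drugs in Huh7 (0.27). Quantile scaling turned CA9 after DSF in Huh1 (-0.13), NDRG1 between the drugs in Huh7 (-0.14) and the DSF line differences of HK2 (-0.060) and LDHA (-0.13). Median scaling turned CA9 after DSF in Huh1 (-0.17) and baseline LDHA (-0.14). CA9 after DSF in Huh1 was -0.025 with slide as a fixed block, -0.016 with slide as a random block and -0.025 on the shared slide. With the mean of a gene's probes, HK2 (-0.089) and PFKFB3 (-0.018) turned after DSF in Huh7, HK2 (-0.079) after 5-FU in Huh1, PFKFB3 (-0.10) after 5-FU in Huh7, LDHA (-0.26) at baseline, HK2 (0.10) and PFKFB3 (0.11) between the drugs in Huh1, and HK2 (-0.11) in the DSF line difference. Of these, HK2 had passed in 3 comparisons and no longer did. With this mean, 1 result that had not passed then passed in its new direction. Leaving out single arrays turned results that had not passed, over these ranges: after 5-FU in Huh1 CA9 (-0.59 to 0.18), PFKFB3 (-0.17 to 0.0059) and VEGFA (-0.031 to 0.066), after 5-FU in Huh7 PFKFB3 (-0.049 to 0.28), between the drugs in Huh7 NDRG1 (-0.058 to 0.24) and PFKFB3 (-0.095 to 0.23), after DSF in Huh1 CA9 (-0.32 to 0.45), in the DSF line difference ADM (-0.023 to 0.31), HK2 (-0.044 to 0.080) and LDHA (-0.069 to 0.036), and at baseline LDHA (-0.015 to 0.051). Signal over background limits CA9 in Huh7 and the dimmer HK2 probe in Huh1.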

Other observations

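Of 8 relatives of CA9 and NDRG1, both included, 1 rose and 5 fell after DSF in Huh1 (12.5% and 62.5%, against 23.9% and 20.3% of all tested probes), and 2 rose and 5 fell in Huh7 (25% and 62.5%, against 27.3% and 19.4%), a count that includes CA9 below background. The median change of these genes was -0.45 in Huh1 and -0.46 in Huh7 with DSF, and -0.23 and -0.07 with 5-FU. After 5-FU 2 rose and 3 fell in Huh1 (25% and 37.5%, against 22.2% and 26%), and 4 rose and 3 fell in Huh7 (50% and 37.5%, against 27.3% and 29.7%), while on the spike-in scale 6 and 4 rose and none fell. NDRG4 rose after DSF in both lines (2.74 and 2.11) while NDRG1 fell. CA2, a cytosolic carbonic anhydrase, rose by 2.09 after 5-FU in Huh7, and CA12, a surface one, fell by 1.59 after DSF in Huh7.

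Of 8 regulators shared with other pathways, 1 rose and 2 fell after DSF in Huh1 (12.5% and 25%, against 23.9% and 20.3% of all tested probes), and 4 rose and 2 fell in Huh7 (50% and 25%, against 27.3% and 19.4%). After 5-FU 2 rose and 4 fell in Huh1 (25% and 50%, against 22.2% and 26%), and 3 rose and 5 fell in Huh7 (37.5% and 62.5%, against 27.3% and 29.7%). Over the list, the median change was 0.09 in Huh1 and 0.25 in Huh7 with DSF, and -0.28 and -0.57 with 5-FU. With arrays set to spike-in probes, 7 rose and none fell after 5-FU in Huh1, and 4 rose and 1 fell in Huh7. MYC, which drives many glycolytic genes, fell by 0.70 after DSF in Huh1 and by 1.91 after 5-FU in Huh7, and was 0.31 above control after DSF in Huh7, not past the test. MLXIPL, the carbohydrate-sensing factor ChREBP, fell after DSF in both lines (-0.91 and -1.28). PPARGC1A, a coactivator of mitochondrial genes, rose after 5-FU (1.24 and 0.71) and after DSF in Huh7 (0.90).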
